A study of Rattus norvegicus with 18 samples.

Results

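The mitochondrial respiratory chain was followed across 5 groups of neonatal rat cardiomyocyte cultures as the transcripts of its nuclear-encoded subunits. Members were all genes whose platform symbol names a subunit of complex I (Ndufa, Ndufb, Ndufc, Ndufs, Ndufv), complex II (Sdha to Sdhd), complex III (Uqcr), complex IV (Cox4 to Cox8) or complex V (Atp5), without assembly factors, each represented by its brightest probe. On the larger of 2 array designs this gave 65 of 12198 genes, from 71 of 33849 probes: 29 genes of complex I, 3 of complex II, 7 of complex III, 12 of complex IV and 14 of complex V. On the smaller design it gave 38 of 6455 genes, and all 38 were also on the larger one. Ndufa4l2 and Cox8c lay too low to be tested, which left 63 members, and 61 of the 65 had a mean above the median of all probes.

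Complexes I, III and IV pass electrons from NADH to oxygen across the inner mitochondrial membrane and pump protons as they do so, while complex II feeds electrons from succinate without pumping. Complex V, the ATP synthase, lets the protons flow back and makes ATP. Heart muscle is among the tissues richest in these complexes, and several subunits of complex IV exist there in a muscle form beside a form found in most tissues.

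Ventricular cardiomyocytes of 1 day old rats were purified on Percoll gradients, plated, and kept for 24 h in cardiac medium before the time zero extraction. The remaining dishes were brought to 50% hESC medium, the medium of human embryonic stem cells, either unconditioned or conditioned by stem cells, with FBS at 5% and HS at 10% in both, and extracted after 24 h or 48 h. RNA of 18 samples was hybridised to CodeLink arrays, a 1-colour platform: 6 samples of time zero and 3 of each of the 4 medium groups. Tests used the 12 arrays of the larger design, 4 of time zero (replicates 3 to 6) and 2 of each medium group (replicates 2 and 3), and the 6 arrays of the smaller design (2 of time zero and 1 of each medium group) served as a comparison without a test. Nothing in the labels says that samples of a group came from separate cell preparations, and p-values therefore reflect array-to-array spread alone, part of which may be technical. In such bulk samples, fewer cells of a type and less RNA per cell cannot be told apart.

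Arrays differed in ways the groups do not account for. Unconditioned 48 h replicate 2 and time zero replicates 4 and 5 had an upper to lower quartile ratio of intensity of 22.4 to 25.7, against 38.7 to 47.8 on the other 9 arrays, and the median deposited intensity ran from 70.3 to 143.6. Cardiomyocyte markers were measured for 16 of 20 genes listed, all above the floor. Their summed intensity was 341000 to 355500 at time zero, 332700 to 341700 and 326000 to 326600 in unconditioned medium at 24 h and 48 h, and 299600 to 312600 and 301700 to 308500 in conditioned medium. Bright markers weigh most in this sum, and single markers moved by unlike amounts. Mb had 6003 to 8504 at time zero, and 4288 and 4020 against 1197 and 1074 at 48 h. Myl7 had 10410 to 12770, then 7578 and 6552 against 3036 and 3281. Myl2 had 27680 to 32260 at time zero and 29150 on both conditioned 48 h arrays, and Nppa 25410 to 27870, then 28430 and 29430. The summed fibroblast markers (11 of 12 measured) went from 11260 to 15270 at time zero to 22980 to 26290 in unconditioned and 28520 to 32510 in conditioned medium at 48 h, and no marker of the list was at the floor on all arrays. The markers did not move together between media. At 48 h Fn1 (3461 and 2923 against 10030 and 8491) and Vim (14150 and 10260 against 17190 and 14390) were higher in conditioned medium. Col1a1 (5675 and 6212 against 3034 and 3263), Col1a2, Thy1, Postn and Ddr2 were lower there, and Dcn, Lum, Pdgfra and Tcf21 lay below the filter. Smooth muscle and pericyte markers (8 of 9 measured) went from 19990 to 30290 to 40230 to 45210 and 44090 to 44970, and endothelial markers (7 of 9) from 1400 to 1742 to 2872 to 3353 and 2927 to 2937. The sum over leukocyte markers (8 of 9) was 1118 to 2023 at time zero, 1173 to 2655 in unconditioned and 963.2 to 1006 in conditioned medium at 48 h, with 1 marker at the floor on all arrays. That over erythroid markers (3 of 7) was 112.5 to 1036, 131.6 to 402.4 and 109.5 to 126.1. The part of these shifts in the changes of members described below was not tested.

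The upstream sequences of some subunit genes are shown, so that motif matches can be read beside the changes described below. RefSeq promoters (rat assembly GRCr8) were matched by Entrez gene identifier for 58 of the 65 members. The 250 bases before the start were searched on both strands for GCATGCG (NRF1), CCGGAAG (GABPA and other ETS factors), AAGGTCA (estrogen-related receptors, ESRR) and ATGGCGG (YY1), the binding motifs of factors known to act on subunit genes. The NRF1 motif overlaps its own reverse complement, so that 1 stretch can match on both strands. The 120 bases before the start are printed 5′ to 3′ on the strand of the gene, with matches in capitals. Ndufv3 is the member that rose in conditioned medium, Ndufs1, Ndufs8, Sdhd and Cox7a2 fell in at least 1 group, Uqcrc1 shows the NRF1 motif in a member that was not called, and Cox8a and Cox8b are an isoform pair.
Ndufv3 (chr20:9613666-9613785, plus strand): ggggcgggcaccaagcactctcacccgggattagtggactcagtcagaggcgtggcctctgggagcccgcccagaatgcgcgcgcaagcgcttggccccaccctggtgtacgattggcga
Ndufs1 (chr9:72073606-72073725, minus strand): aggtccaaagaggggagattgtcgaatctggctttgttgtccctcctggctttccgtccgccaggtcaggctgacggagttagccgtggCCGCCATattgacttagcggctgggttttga
Ndufs8 (chr1:210573699-210573818, minus strand): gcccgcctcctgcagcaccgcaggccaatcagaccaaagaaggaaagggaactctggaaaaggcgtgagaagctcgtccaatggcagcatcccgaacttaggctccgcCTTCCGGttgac
Sdhd (chr8:59850642-59850761, minus strand): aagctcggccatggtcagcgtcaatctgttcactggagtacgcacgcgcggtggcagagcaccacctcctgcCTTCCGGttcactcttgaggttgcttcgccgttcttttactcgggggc
Cox7a2 (chr8:89601150-89601269, minus strand): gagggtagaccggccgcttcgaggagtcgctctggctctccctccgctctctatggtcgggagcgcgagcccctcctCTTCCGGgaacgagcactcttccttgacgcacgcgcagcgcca
Uqcrc1 (chr8:118468103-118468222, plus strand): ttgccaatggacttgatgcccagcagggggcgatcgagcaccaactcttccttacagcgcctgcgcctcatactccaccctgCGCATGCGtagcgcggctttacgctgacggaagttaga
Cox8a (chr1:213833624-213833743, minus strand): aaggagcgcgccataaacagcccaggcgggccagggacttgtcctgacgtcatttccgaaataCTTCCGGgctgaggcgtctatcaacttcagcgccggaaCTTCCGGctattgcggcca
Cox8b (chr1:205408274-205408393, minus strand): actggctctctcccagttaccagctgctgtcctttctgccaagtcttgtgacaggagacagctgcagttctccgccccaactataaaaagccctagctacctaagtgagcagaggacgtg

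At least 1 of the 4 motifs stood in the window of 24 of 58 members (41.4%), against 15.9% of all 27457 promoters of the same length. The GABPA motif was found in 15 members (25.9%, against 7.74% of all promoters), the NRF1 motif in 6 (10.3% against 3.14%), the ESRR motif in 6 (10.3% against 3.77%) and the YY1 motif in 5 (8.62% against 2.54%). Of the 15 members with a promoter that fell against time zero in any group, 5 held the GABPA motif, 3 the YY1 motif and 0 the NRF1 or ESRR motif. Of the 43 others, 10 held the GABPA motif, 2 the YY1 motif, 6 the NRF1 and 6 the ESRR motif. These others include Ndufa4l2 and Cox8c, which were not tested and so could not be called, and Cox8c held the NRF1 motif. In the isoform pair, the stretch of Cox8a, the form found in most tissues, held the GABPA motif at 2 positions, and that of Cox8b, the muscle form, held none of the 4 motifs. A match describes letters in this window and says nothing of binding.

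Conditioned against unconditioned medium asks what differs once the medium has been conditioned by stem cells. Over both times, few subunits moved: of 63 members 1 rose and 1 fell, both in complex I. Among all 9955 genes 4.95% were called in either direction (2.77% higher, 2.18% lower), so the members' 2 calls lay near the background. The median change of the members was -0.10 on the log2 scale, with 42 of 63 below 0, beside 0.04 for all genes, of which 4483 were below 0. For 50 of 63 members the change was within 0.25, and for 58 within 0.5. The members lay at a median percentile of 99.2 of all probe means, and whether probes this bright show changes in full was not tested.

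Ndufv3, an accessory subunit of the flavoprotein arm of complex I that oxidises NADH, had normalized intensities of 326.1, 212.0, 201.8 and 299.3 at time zero. It had 230.9 and 241.1 in unconditioned and 445.0 and 425.7 in conditioned medium at 24 h, and 208.8 and 277.5 against 432.4 and 395.7 at 48 h. All 4 conditioned arrays lay above all 4 unconditioned arrays, and above time zero. The change was 0.83 ± 0.20 (SE, 4 arrays against 4; 1.78-fold; limma with Benjamini-Hochberg adjustment over all probes, adjusted p = 0.0386), with a 95% interval of 0.40 to 1.27. With each array scaled to its median the change relative to all probes was 0.83. The change before that shift had an adjusted p of 0.163 (limma), and Ndufv3 was not on the smaller design.

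Ndufa8, an accessory subunit on the intermembrane space face of complex I, had 15600, 14880, 13940 and 16530 at time zero. It had 13770 and 12710 in unconditioned and 10380 and 9614 in conditioned medium at 24 h, and 15210 and 13880 against 12290 and 11890 at 48 h. Every conditioned array lay below every unconditioned one. Ndufa8 fell by 0.34 ± 0.08 (limma, adjusted p = 0.0451, interval -0.52 to -0.15), with an adjusted p of 0.794 after median scaling. On the smaller design it was also lower in conditioned medium, with 14300 against 16900 at 24 h and 14110 against 15730 at 48 h, beside 18730 and 18430 at time zero. Leaving out any 1 of the 8 medium arrays took the adjusted p of Ndufa8 to between 0.0584 and 0.175, and that of Ndufv3 to between 0.0444 and 0.167.

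Arrays of the media did not overlap for 4 members, all of complex I: Ndufv3 higher and Ndufa8, Ndufs1 and Ndufs4 lower. Among all genes 9.78% were higher without overlap and 6.12% lower. Ndufs1, the largest iron-sulfur subunit of complex I, had 6015 and 5807 against 4797 and 5375 at 24 h and 6443 and 6116 against 5082 and 5216 at 48 h, a change of -0.25 ± 0.08 (limma, adjusted p = 0.11). Ndufs4, an accessory subunit whose loss causes complex I deficiency, had 2432 and 2271 against 1475 and 1663, then 2058 and 2209 against 1299 and 1388. Its change was -0.63 ± 0.18 (limma, adjusted p = 0.0814). Ndufa1, which complex I needs for its assembly, followed with -0.34 ± 0.10 (adjusted p = 0.08), and Ndufa2 with -0.44 ± 0.19 (adjusted p = 0.243). On the higher side the 4 members with the next smallest p were Cox8b, Atp5pd, Atp5f1b and Sdhb, and none passed. Cox8b had 2.08 ± 1.44 (limma, adjusted p = 0.514), and -0.42 ± 0.32 without unconditioned 24 h replicate 2, on which its spot was deposited at 0.0001. Atp5pd had 0.26, Atp5f1b 0.10 and Sdhb 0.13.

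**Figure D1:**
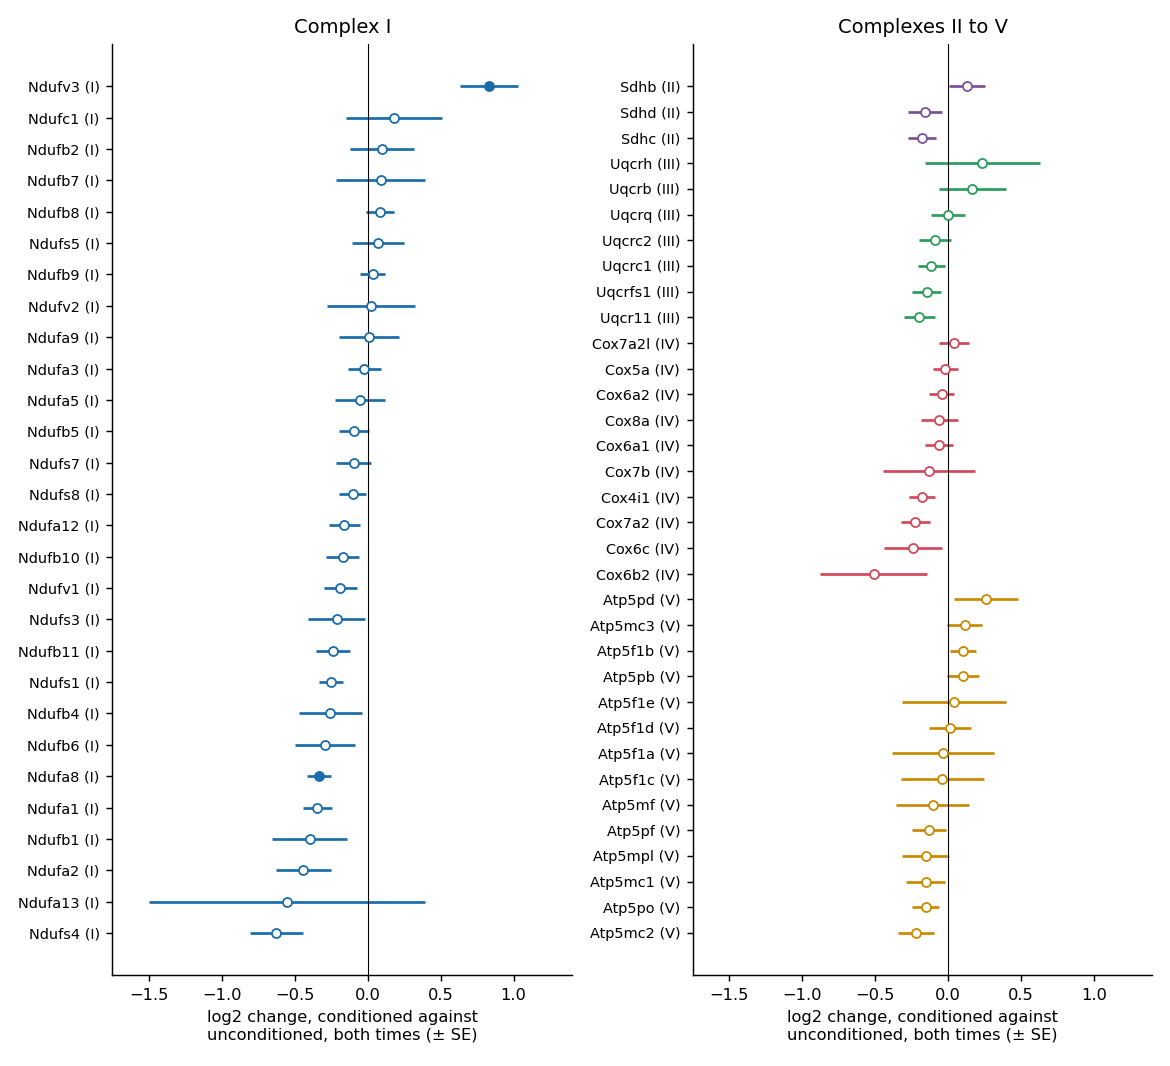
Change of 62 members in conditioned against unconditioned medium over both times (x axis, log2 change; bars, SE; 4 arrays against 4), ordered by change within each complex; filled circles passed limma at an adjusted p under 0.05. Ndufv3 (0.83) and Ndufa8 (-0.34) are filled, Cox8b is left off because 1 of its spots was deposited at 0.0001, and Ndufa13 has the widest bar.

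By complex, the median change over both times was -0.13 in complex I (19 of 28 members below 0), -0.16 in complex II (2 of 3), -0.09 in complex III (4 of 7), -0.06 in complex IV (9 of 11) and -0.04 in complex V (8 of 14). The highest and lowest members were Sdhb (0.13) and Sdhc (-0.18) in complex II, Uqcrh (0.23) and Uqcr11 (-0.20) in complex III, and Atp5pd (0.26) and Atp5mc2 (-0.22) in complex V. In complex IV they were Cox8b (2.08, resting on the spot described below) and Cox6b2 (-0.51), a dim probe with intensities of 26.2 to 150.7. None of these passed.

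At 24 h alone 0 members passed limma, against 1.8% of all genes called (0.773% higher, 1.02% lower). At the looser threshold of an unadjusted p under 0.05 there were 10 members, 8 of them lower, and no share of all genes is given for it. The median of the members was -0.19 with 50 of 63 below 0, beside 0.02 for all genes. At 48 h 0 members passed, and 1.01% of all genes were called (0.683% higher, 0.331% lower). The looser threshold held 7 members. The median of the members was -0.02 with 35 below 0. Ndufb2, a membrane arm subunit, followed Ndufv3 on the higher side at 48 h with 0.67 ± 0.31 (limma, adjusted p = 0.386). The difference between the medium effects at the 2 times had a median of 0.17 over the members and 0.06 over all genes. No member passed it, and 0% of all genes were called. The looser threshold held 5 members. Ndufv1, the NADH-binding subunit, had the smallest p of the difference (0.73 ± 0.22, limma, adjusted p = 0.9998), with -0.55 at 24 h and 0.18 at 48 h.

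The 24 h median moved most with the unconditioned arrays. It was -0.05 without unconditioned 24 h replicate 2 and -0.30 without unconditioned 24 h replicate 3, and relative to time zero those arrays had member medians of 0.00 and -0.22, while the conditioned 24 h arrays had -0.31 and -0.27. Under the alternatives for normalization it ran from -0.19 to -0.32.

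**Figure D2:**
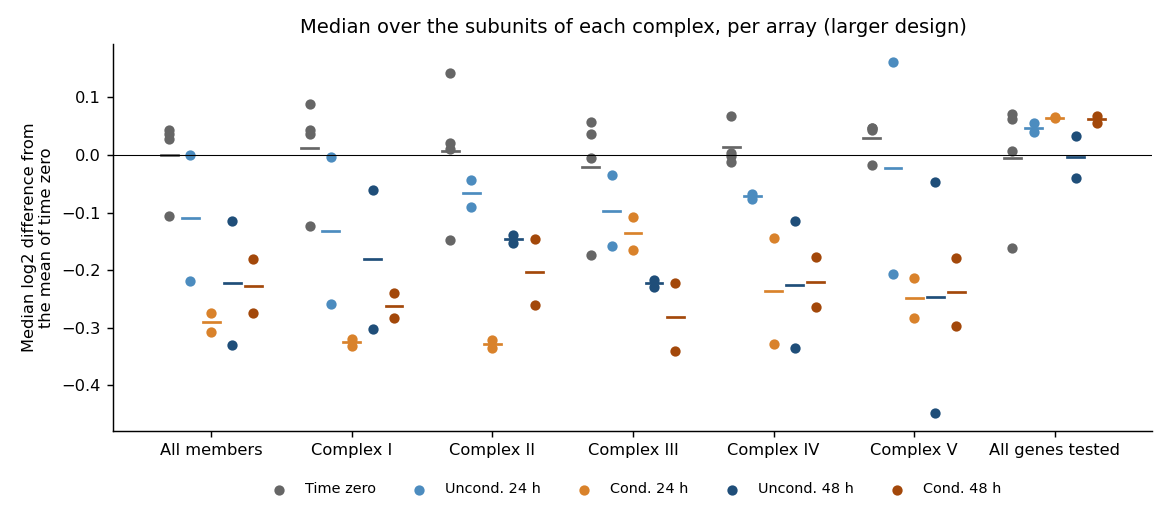
Median over the members, over each complex and over all genes tested, on each array, as log2 difference from the mean of time zero (points, arrays of the larger design; lines, group means). Conditioned 24 h arrays sit at -0.31 and -0.27 for all members, the unconditioned 24 h arrays at 0.00 and -0.22, and the medians of all genes between -0.16 and 0.07.

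Against time zero, no member rose in any of the 4 medium groups, and 17 of 63 fell in at least 1. The share of all genes that fell in at least 1 group was not taken, and shares are given below for each group alone. Of the 17, 9 belonged to complex I, which holds 28 of the 63 members tested. These comparisons share the 4 time zero arrays. In unconditioned medium at 24 h 0 members passed limma (3.27% of all genes called, 2.68% higher and 0.593% lower) and the median was -0.08. At the looser threshold of an unadjusted p under 0.05 there were 4 members, all lower, with no share of all genes given for it. In conditioned medium at 24 h 6 fell, 9.52% of the members, beside 3.86% of all genes lower and 7.46% higher. In unconditioned medium at 48 h 5 fell (7.94%, beside 5.57% of all genes lower and 7.41% higher). In conditioned medium at 48 h 11 fell (17.5%, beside 5.83% lower and 11.1% higher). The member medians in these last 3 groups were -0.28, -0.23 and -0.23, with 56, 56 and 50 of 63 below 0, beside 0.05, 0.00 and 0.05 for all genes.

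All 22 of these calls depend on how arrays were brought to one scale. With each array scaled to its median, 0 of the 22 calls passed, in tests of changes that were not set relative to all probes. Changes relative to all probes had a member median of 0.16 (10 of 63 below 0) in unconditioned medium at 24 h, so that the direction turned. In the other 3 groups these medians were -0.12, -0.18 and -0.05. With 75th percentile scaling 2 calls passed, with cyclic loess 17, and without the 3 arrays that stood apart 9. Under median scaling the median change of all probes was 0.19, 0.18, 0.01 and 0.16 in the 4 groups, beside 0.04, 0.04, -0.02 and 0.01 with quantile normalization.

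**Figure D3:**
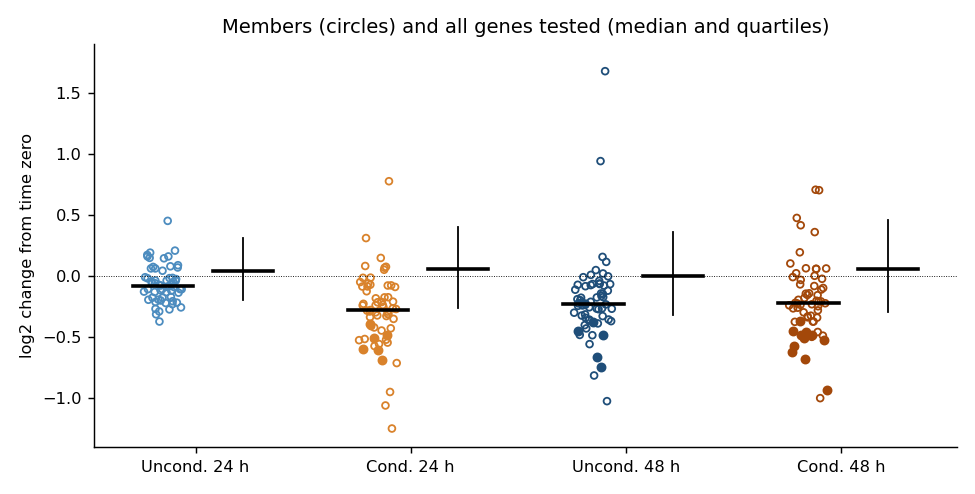
Change from time zero of each member (circles; filled, passed limma at an adjusted p under 0.05) in the 4 medium groups, with the median of the members, and the median and quartiles of all genes tested (right of each group; thin line, quartiles). Members beyond the axis are Cox8b in unconditioned 24 h and conditioned 48 h medium and Ndufa13 in unconditioned 24 h medium; member medians sit at -0.08, -0.28, -0.23 and -0.23.

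In complex I, 3 members fell in conditioned medium at 24 h, 1 in unconditioned at 48 h and 8 in conditioned at 48 h. Ndufv1 had 5527, 5696, 5929 and 4509 at time zero, 4683 and 5125 in unconditioned and 3614 and 3094 in conditioned medium at 24 h, and 3608 and 3210 against 4094 and 3608 at 48 h. The arrays of the last 3 groups lay below all of time zero. It fell by 0.69 ± 0.14 in conditioned medium at 24 h (limma, adjusted p = 0.00725), by 0.66 in unconditioned at 48 h (0.0086) and by 0.49 in conditioned at 48 h (0.0331). Ndufa8 fell by 0.61 ± 0.10 in conditioned medium at 24 h (adjusted p = 0.00267) and had -0.33 at 48 h.

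Ndufs1 was the complex I member for which all 8 medium arrays lay below all of time zero, where it had 6751, 6468, 6734 and 6662, and it fell by 0.39 ± 0.10 and 0.37 ± 0.10 in conditioned medium at 24 h and 48 h (limma, adjusted p = 0.027 and 0.0258). Among all genes 3.35% lay lower without overlap on the 8 arrays and 6.99% higher; among members it was 3 lower and 0 higher. Ndufa1 had 14320 to 15040 at time zero and 11000 and 8389 in conditioned medium at 48 h, a fall of 0.62 ± 0.12 (limma, adjusted p = 0.00501). Ndufs7 and Ndufs8, iron-sulfur subunits near the quinone site, fell by 0.48 and 0.52 in that group (adjusted p = 0.0491 and 0.00966), as did Ndufb10 and Ndufb11 of the membrane arm by 0.57 and 0.51 (0.0149 and 0.0342). The other tested probe of Ndufs7, much dimmer, had -0.05 in that group (limma, adjusted p = 0.9745). Ndufs4 fell by 0.94 ± 0.22 there (adjusted p = 0.0154), from 2234, 1772, 3122 and 3518 to 1299 and 1388. Its second probe lay below the filter, and with both probes averaged the direction turned: the change in that group was then above 0, at 0.25 ± 0.37 (limma, adjusted p = 0.74), and that between media over both times went from -0.63 to 0.38 ± 0.30 (0.596).

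In complex II, Sdhd, a membrane anchor that carries the quinone site, had 6269, 6314, 6816 and 5399 at time zero and 4653 and 4066 in conditioned medium at 24 h, without overlap. It fell by 0.51 ± 0.14 (limma, adjusted p = 0.0441). Sdhb, the iron-sulfur subunit, ranged from 19150 to 27680 over all arrays and Sdhc, the other anchor, from 8144 to 11000, and neither passed in any comparison.

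In complex III, Uqcr11, a small subunit, had 12290, 12830, 13830 and 10610 at time zero, 10520 and 11050 in unconditioned medium at 24 h, and 7327 and 9095 in conditioned medium. At 48 h it had 8602 and 9415 against 9254 and 8848. The arrays of conditioned medium at 24 h and of both media at 48 h lay below all of time zero, with falls of 0.60 ± 0.13, 0.45 ± 0.13 and 0.45 ± 0.13 (limma, adjusted p = 0.0109, 0.0392 and 0.0348). The other 6 members of the complex did not pass: the core proteins Uqcrc1 and Uqcrc2 had changes of -0.28 to -0.02, and Uqcrfs1, the Rieske iron-sulfur protein, of -0.37 to -0.06 over the 4 groups.

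In complex IV, Cox4i1, a regulatory subunit, had 18790, 17110, 20090 and 18960 at time zero and between 13050 and 16340 on the 8 medium arrays, all lower. It fell by 0.49 ± 0.11 in conditioned medium at 24 h (limma, adjusted p = 0.0139). Cox7a2 fell by 0.46 ± 0.12 in conditioned medium at 48 h (adjusted p = 0.0248). Cox7a2l, which helps join complexes III and IV, fell by 0.48 ± 0.12 in unconditioned medium at 48 h (adjusted p = 0.0282).

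Cox8b, the muscle form of subunit VIII, had 14570, 17950, 6368 and 6998 at time zero, 5022 on 1 unconditioned 24 h array, and 4743 and 4028 on the conditioned arrays of that time. The later time gave 5522 and 4720 in unconditioned and 3393 and 3170 in conditioned medium. All of these medium arrays lay below time zero. On unconditioned 24 h replicate 2 the spot was deposited at 0.0001, against 4441 on replicate 3, and with this spot in the fit no comparison of Cox8b passed. Without that array Cox8b fell by 1.65 ± 0.35 in conditioned medium at 48 h (limma, adjusted p = 0.0103), and had -1.23 in conditioned medium at 24 h (0.0545), -1.01 in unconditioned at 48 h (0.103) and -1.04 in unconditioned at 24 h (0.465). On the smaller design it had 11750 and 11300 at time zero, 10840 and 8684 at 24 h and 8008 and 6212 at 48 h in unconditioned and conditioned medium.

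The ratio of a muscle or tissue form to its partner was read per array, over 4 time zero and 8 medium arrays, with an exact two-sided permutation test of 495 splits (smallest possible p = 0.00202) adjusted over 3 ratios. The log2 ratio of Cox8b to Cox8a differed by -2.39 between medium and time zero arrays (adjusted p = 0.733), and by -1.10 without unconditioned 24 h replicate 2 (adjusted p = 0.00909, exact permutation test). Leaving out this array was not planned. With fewer arrays there are fewer splits, and 0.00909 is the smallest adjusted p they allow where only 1 ratio reaches the limit. Cox6a2, the muscle form of subunit VIa, to Cox6a1 differed by -0.00 (p = 0.982), and Cox7a2l to Cox7a2 by -0.04 (p = 0.766, exact permutation tests). The probes of Cox6a2 and Cox6a1 both lay at percentile 99.9 of all probe means, near the top of the range. The other planned pairs lacked a measured partner.

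In complex V, Atp5f1d, the delta subunit of the catalytic head, had 16790, 19560, 13880 and 13830 at time zero and 9444 and 9477 in unconditioned medium at 48 h. It fell by 0.74 ± 0.18 there (limma, adjusted p = 0.02), and had 11800 and 10320 in conditioned medium at 24 h and 14920 and 9996 at 48 h, where the arrays overlap time zero. Atp5f1b, the catalytic beta subunit, fell by 0.38 ± 0.11 in unconditioned medium at 48 h (adjusted p = 0.045), where conditioned medium had -0.18 (0.339). Its probes differed in size: the other tested probe of Atp5f1b, also bright, fell by 1.36 and 0.96 in these groups (limma, adjusted p = 0.000119 and 0.000915), and had 0.39 between media over both times (0.0964). Atp5mpl, a small membrane subunit, fell by 0.68 ± 0.20 in conditioned medium at 48 h (adjusted p = 0.0378). The other 11 members of complex V did not pass in any comparison, among them Atp5pb of the peripheral stalk, which had -0.37 ± 0.13 in unconditioned medium at 24 h (adjusted p = 0.218).

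**Figure D4:**
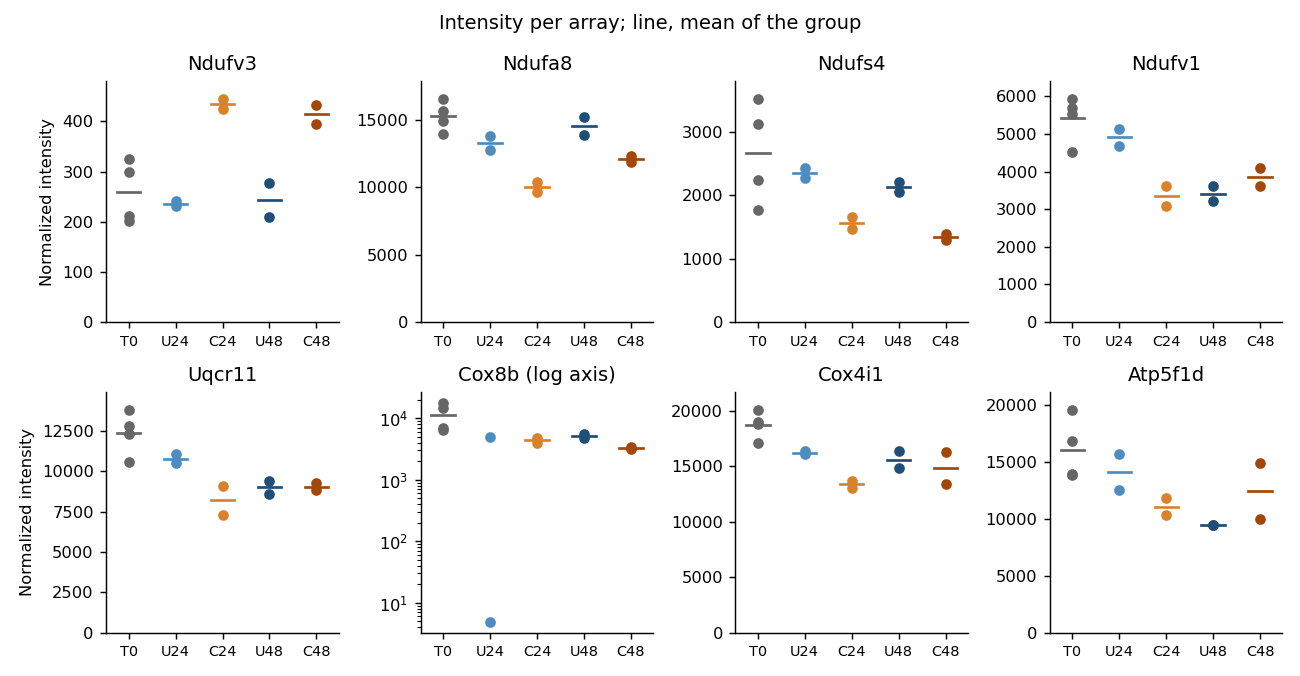
Normalized intensity of 8 members on each array of the larger design (points, arrays; lines, group means; T0 time zero, U unconditioned, C conditioned, with the hours). Ndufv3 is the 1 panel in which conditioned arrays (395.7 to 445.0) lie above the others, and the lone low point of Cox8b, on a log axis with no mean drawn for its group, is the spot at the floor of 4.888.

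A subset of members differed between arrays of one group. In 17 of 63 (27%) replicate 2 exceeded replicate 3 by over 0.5 on the log2 scale in unconditioned medium at both 24 h and 48 h, against 6.03% of all genes, and 14 of these 17 were also over 0.5 lower on time zero replicate 6 than on the mean of the other time zero arrays. In all, 16 of 63 members (25.4%) were over 0.5 lower on time zero replicate 6, against 13% of all genes, and 5 members were over 0.5 higher. Uqcrh, the hinge protein of complex III, had the widest gap at 24 h (7985 against 2529) and 5597 against 2111 at 48 h, with 6321, 4315, 4003 and 2397 at time zero. Atp5f1a, the alpha subunit of complex V, had 10860 against 4891 and 10140 against 3707, and 8114, 12050, 8835 and 4409 at time zero. The conditioned replicates differed less, near the share of all genes. Replicate 2 was over 0.5 higher in 3 of 63 members at 24 h (4.76%, against 5.55% of all genes). At 48 h it was over 0.5 higher in 4 (6.35%, against 4.47%) and over 0.5 lower in 2. This subset was noticed in the values and was not tested.

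On the smaller design, 37 members passed the filter and the direction of the medium difference was not that of the larger one. Over both times the median was 0.06 with 17 of 37 below 0 (all genes -0.06), and 17 of 37 had the sign seen on the larger design. Against time zero the medians were -0.10 and -0.12 in unconditioned and conditioned medium at 24 h, and -0.40 and -0.18 at 48 h, with 32, 28, 36 and 31 of 37 below 0. All genes had medians of -0.02, -0.03, 0.00 and -0.05. The 2 time zero arrays of this design lay over 0.5 apart for 11 of 37 members, and 6 of the 7 members whose medium difference exceeded 0.5 were among them. Cox4i1 had 1614 and 149.3 on these arrays, 527.4 against 2158 at 24 h and 136.5 against 536.3 at 48 h in unconditioned and conditioned medium, from another probe than on the larger design. With 1 array for each medium group no error can be given.

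**Figure D5:**
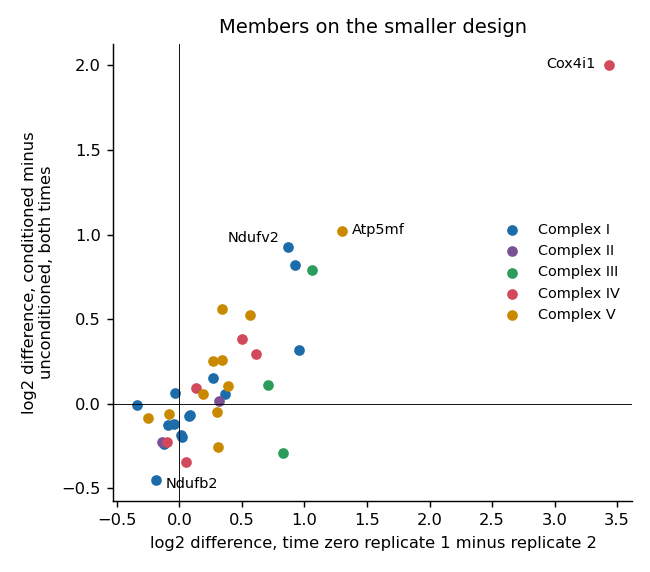
Members on the smaller design: log2 difference between its 2 time zero arrays (x axis) against the conditioned minus unconditioned difference over both times (y axis; 1 array for each medium group and time), coloured by complex. Cox4i1 lies at 3.43 on the x axis, far from the rest, Atp5mf at 1.30 and 1.02, and members with a wide gap between the time zero arrays tend to lie high on the y axis.

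Around the chain, 42 assembly factors were tested: 1 fell in conditioned against unconditioned medium over both times (Acad9, -0.64 ± 0.16, adjusted p = 0.0469, limma), with a list median of -0.01. The share of all genes that fell over both times was 2.18%. Against time zero 3, 2 and 5 assembly factors fell in conditioned medium at 24 h, unconditioned at 48 h and conditioned at 48 h, and 0 in unconditioned at 24 h (4 at an unadjusted p under 0.05). At the adjusted threshold, the shares of all genes that fell in these 4 groups, in the same order, were 3.86%, 5.57%, 5.83% and 0.593%. Higd1a, a hypoxia-induced protein that binds complex IV, fell in the first 3 of these by 0.66, 0.62 and 0.81. Coa5 and Cox14, assembly factors of complex IV, fell in conditioned medium at both times, Coa5 by 0.63 and 0.65 and Cox14 by 0.68 and 0.68. Higd2a and Ndufaf8, the latter an assembly factor of complex I, fell in conditioned medium at 48 h by 0.64 and 0.67, and Pet100, of complex IV assembly, fell in unconditioned medium at 48 h by 0.48.

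Of 15 regulators of mitochondrial biogenesis, 10 were above 0 over both times and the list median was 0.16, while the 1 that passed fell. This was Perm1, a muscle regulator of oxidative genes, which fell by 1.83 ± 0.32 (limma, adjusted p = 0.00825). Its arrays had 589.3, 1501, 504.4 and 650.4 at time zero, 244.5 and 216.8 against 49.1 and 38.3 at 24 h, and 181.3 and 108.9 against 59.3 and 59.2 at 48 h, without overlap between media. Against time zero 1, 3, 3 and 3 regulators fell in the 4 groups (unconditioned and conditioned at 24 h, then at 48 h), Perm1 among them in each, and 1 rose: Pprc1, a coactivator related to PGC-1, rose by 0.57 ± 0.16 in conditioned medium at 24 h (adjusted p = 0.0449). Of all genes 0.593%, 3.86%, 5.57% and 5.83% fell in these groups, and 7.46% rose in conditioned medium at 24 h. Ppargc1a, the coactivator PGC-1 alpha, fell against time zero in conditioned medium by 0.84 and 0.93 (adjusted p = 0.0456 and 0.0209), and its relative Ppargc1b by 0.89 at 24 h (0.0227). Polrmt, the mitochondrial RNA polymerase, fell at 48 h by 0.51 in unconditioned and 0.74 in conditioned medium (0.0395 and 0.00405), and Esrra, a nuclear receptor of oxidative genes, fell by 2.11 in unconditioned medium at 48 h (adjusted p = 0.000645).

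Among 17 genes of the citrate cycle and pyruvate dehydrogenase, 2 fell over both times: Idh2, the mitochondrial isocitrate dehydrogenase, by 0.37 ± 0.08 (adjusted p = 0.017), and Pdk2, a kinase that inhibits pyruvate dehydrogenase, by 0.56 ± 0.09 (adjusted p = 0.00557, limma), while 13 of 17 were above 0 and the list median was 0.07. The share of all genes that fell over both times was 2.18%, and 2.77% rose. Against time zero Pdk2 fell by 0.86 and 0.87 in conditioned medium at 24 h and 48 h, and Idh3g and Suclg1, subunits of citrate cycle enzymes, fell by 0.80 and 0.84 in unconditioned medium at 48 h. Of 12 carriers and energy transfer genes Ckm, muscle creatine kinase, fell by 0.76 ± 0.18 (adjusted p = 0.0331), and by 1.80, 1.60 and 2.16 against time zero in conditioned 24 h, unconditioned 48 h and conditioned 48 h medium. Slc25a20, the carnitine carrier, fell by 0.85 in unconditioned medium at 48 h (adjusted p = 0.0329). Genes of this list also rose against time zero: Ucp2, an uncoupling protein, by 0.65 and 0.80 in unconditioned medium at 24 h and 48 h (0.0289 and 0.00315), and Ckb, the brain form of creatine kinase, by 0.85 in conditioned medium at 48 h (0.0316). The 5 other chain parts included cytochrome c and Cyc1, the cytochrome c1 of complex III, which the symbol rule leaves out of the members. Of these 5, 0 passed over both times and 2 had an unadjusted p under 0.05 (limma, Cyc1 at -0.26 and Etfdh at -0.26). Etfdh fell by 0.46 in conditioned medium at 24 h against time zero (limma, adjusted p = 0.0457). With median scaling 9 of the 39 calls of these 5 pathway lists passed, and without the 3 arrays that stood apart 28 passed. Those that passed with median scaling included the fall of Esrra (limma, adjusted p = 0.00351) and Ckm against time zero in the same 3 groups. Perm1 over both times also passed (limma, adjusted p = 0.00308 before the shift to all probes), with a change of -1.98 relative to all probes.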

How the data were processed

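Expression was measured with 1-colour CodeLink arrays of 2 designs, 12 of the larger and 6 of the smaller one, kept apart throughout. The deposited values are linear intensity; scanner, background correction and normalization are not given in the sources used here. Biotin-labelled RNA was hybridised, per the labels' protocols. The larger table held 33849 probes with values on all arrays, of which 16753 name 1 gene, 165 name several and 16931 name none (smaller: 9906, of which 7290, 87 and 2529). Probes of several genes were not used, among them 6 of subunit genes on the larger and 4 on the smaller design.

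Arrays were quantile normalized, floored at 0.05 of the median (intensity 4.888 on the larger, 15.19 on the smaller design) and log2-transformed. Testing was limited to probes whose mean exceeded the 30th percentile (23694 probes, 9955 genes). Printed intensities are these normalized values. One limma model (version 3.58.1, R 4.3.3; lmFit, then eBayes with an intensity trend) covered all 5 groups of the larger design, with 7 residual and 5.5 prior degrees of freedom. A change was called where the p adjusted by Benjamini-Hochberg across these probes was under 0.05. The number of arrays limits the precision. The pipeline was tested on simulated data. Plots were made in Python 3.11.15 with matplotlib 3.10.9.

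Members, lists, tests and the quantile setting were chosen with earlier results of these data known. Quantile normalization was preferred to median scaling because members are mostly bright probes and arrays differ in their quartile ratio; median scaling is an alternative, and its values stand beside the results it changes. Named were all members that passed in any comparison, for the medium effect over both times the 5 members with the smallest p in each direction, for other comparisons the 2, the isoform pairs, the extremes of each complex, and passing genes of the other lists. Levels of different probes were not compared. Replicate numbers only name arrays, in accession order, and pair nothing.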

Additional observations from a re-analysis of the deposited data

Results flagged for a closer look

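At time zero, 2 of 63 members had 1 array far from the other 3, by a gap that took up more of the group's range than Dixon's critical value allows. Ndufb1, a membrane arm subunit of complex I, had 1920 on time zero replicate 6, against 3275 to 3407 on the others. Atp5f1c, the gamma subunit of complex V, had 5311 on the same array, against 9595 to 10780. Chance flags about 1 in 20 groups where groups are independent. Both flags here were low values on the same array, and both genes belong to the subset described above that differed between arrays of one group. The 2 flags therefore cannot be counted as separate, and their cause was not tested.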

How the results depend on the processing

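Of the 22 calls against time zero, 17 were kept with cyclic loess, 17 with array weights, 12 with no filter, 9 without the 3 arrays that stood apart, 4 with no intensity trend, 2 with 75th percentile and 0 with median scaling. Members called, over both times (2), were 0 with median scaling, no filter or no intensity trend and 1 with 75th percentile scaling. At 24 h (0) they were 1 with cyclic loess, without the 3 arrays that stood apart or with only the groups compared, and 3 with array weights; at 48 h (0) 1 without those 3 arrays. For conditioned 24 h against time zero (6) they were 0 with median scaling, 3 with 75th percentile scaling, 2 with no trend and 13 with array weights. For unconditioned 48 h (5) they were 0 with median scaling or array weights, 2 with no filter, and 1 with 75th percentile scaling, no trend, without the 3 arrays or with only the groups compared. For conditioned 48 h (11) they were 0 with median or 75th percentile scaling, 5 with no filter, 1 with no trend, 17 with array weights and 6 with only the groups compared. Member medians with median and 75th percentile scaling were both -0.32 at 24 h, 0.073 and 0.074 at 48 h, both 0.16 and -0.12 for unconditioned and conditioned 24 h against time zero, and -0.053 and -0.052 for conditioned 48 h. Both gave 0.43 for the difference between medium effects, which was 0.26 with cyclic loess; for unconditioned 48 h it was -0.32 without the 3 arrays. The cause was not tested. Leaving out 1 array at a time gave 0 to 1 calls over both times, at 24 h, for unconditioned 24 h and for the difference, 0 at 48 h, 1 to 7 for conditioned 24 h, 1 to 5 for unconditioned 48 h and 0 to 12 for conditioned 48 h. The medians then ran from -0.18 to -0.05 over both times, -0.30 to -0.046 at 24 h, -0.13 to 0.044 at 48 h, -0.22 to 0.0011, -0.33 to -0.25, -0.33 to -0.12 and -0.28 to -0.19 for the 4 groups in time order, unconditioned first, and 0.016 to 0.26 for the difference. The log2 ratio of Cox8b to Cox8a ran from -2.59 to -1.10. Ndufs4 in conditioned 48 h against time zero turned from -0.94 to 0.25 with its probes averaged, 1 of which lies below the filter. No paired analysis was possible because the labels carry no replicate numbers.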
